A study of Rattus norvegicus with 6 samples.

Results

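A set of 6 immediate early genes was followed in rat colon at a healing anastomosis: Fos (ENSRNOG00000008015), Jun (ENSRNOG00000026293), Atf3 (ENSRNOG00000003745), Egr1 (ENSRNOG00000019422), Nr4a1 (ENSRNOG00000007607) and Dusp1 (ENSRNOG00000003977). They were chosen by gene identifier, and all 6 were found among the 21417 genes listed. Tissue came from male Sprague-Dawley rats of 200 to 230 g, an outbred strain, whose age the labels do not give. Each rat had an end-to-end colonic anastomosis, and the joined site was cut out 2 weeks later. In the MCA group (magnetic compression anastomosis) paired magnets held the bowel ends together, and in the control group the ends were sewn by conventional suture. Each group had 3 libraries, which the labels call biological replicates. No unoperated colon was among these samples, so the levels have no resting reference. The symbols are the ones paired with these identifiers in the definition of the set; the deposited table has no symbols, and the reference gene table used here matched 0 of its identifiers. For the same reason the tissue could not be checked against cell type markers here, and the other immediate early genes of the family are not analysed here.

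Immediate early genes are switched on within minutes of a stimulus, by transcription factors already present in the cell, without new protein synthesis. Growth factors, stretch, wounding, ischaemia and inflammatory signals act on them through MAP kinases, serum response factor and the cyclic AMP response element binding protein. Their transcripts decay fast, so a level in tissue reflects the time shortly before the RNA was preserved, and handling of tissue is itself a known stimulus. The labels describe prompt freezing in liquid nitrogen but give no time from excision to freezing for single libraries, and the part of handling in the values below was not tested. In tissue RNA, fewer cells of a type and less RNA per cell cannot be told apart.

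The libraries held between 14867454 and 15791079 fragments, as recovered from the deposited values. The levels are in FPKM (fragments per kilobase of gene, scaled to the library total), which can be compared between genes. Behind each level of these 6 genes stood 219 to 7587 fragments, which gives a counting error of 1.15% to 6.76%, and this covers counting error only. MCA replicate 2 stands apart from the other libraries over the whole table: its level was the lowest of the 6 libraries for 36.5% of the 13591 genes tested. Results are therefore also given without it.

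Per length and averaged over the 6 libraries, the order of the genes was Jun (75.8 FPKM), Fos (74.0 FPKM), Dusp1 (66.7 FPKM), Nr4a1 (48.7 FPKM), Atf3 (24.9 FPKM) and Egr1 (20.6 FPKM). The levels of neighbours in this order overlapped across the libraries, so their places are not separated by more than the spread. Jun ranked 947 and Egr1 3788 by mean level among the genes tested.

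Means were higher with MCA than with suture for all 6 genes, but no gene passed the test. By limma on log2(FPKM + 1) with Benjamini-Hochberg adjustment over all genes tested, 0 of 6 had an adjusted p under 0.05, against 0% of all genes (0 of 13591). At an unadjusted p under 0.05 limma gave 1 of the 6, Egr1, against 4.91% of all genes (667), and limma-voom on recovered fragments also gave 1 of the 6, with 644 genes in all. The mean log2 level was higher with MCA in 6 of 6 members and in 46.6% of all genes. A log2 fold of at least 1 with MCA was seen in 3 members, Egr1, Nr4a1 and Dusp1, and in 2.65% of all genes. The MCA and suture libraries overlapped in every one of the 6. Of all genes, 6.18% had every MCA library above every suture library, a share too small for 0 of 6 to stand out. The median log2 fold of the members was 0.86, beside -0.02 for all genes tested. Without MCA replicate 2 the members' median was 0.50 and 5 of 6 had the higher mean with MCA, beside 57.1% of all genes. Leaving out suture replicate 3 instead lowered the members' median to 0.49, with 6 of 6 higher beside 51.8% of all genes. In that setting 0 members had an unadjusted limma p under 0.05, beside 4.33% of all genes. Other omissions raised the members' median, to 1.45 without MCA replicate 3 and to 1.13 without suture replicate 2. Without MCA replicate 3, 2 members had an unadjusted limma p under 0.05, beside 3.76% of all genes.

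**Figure D1:**
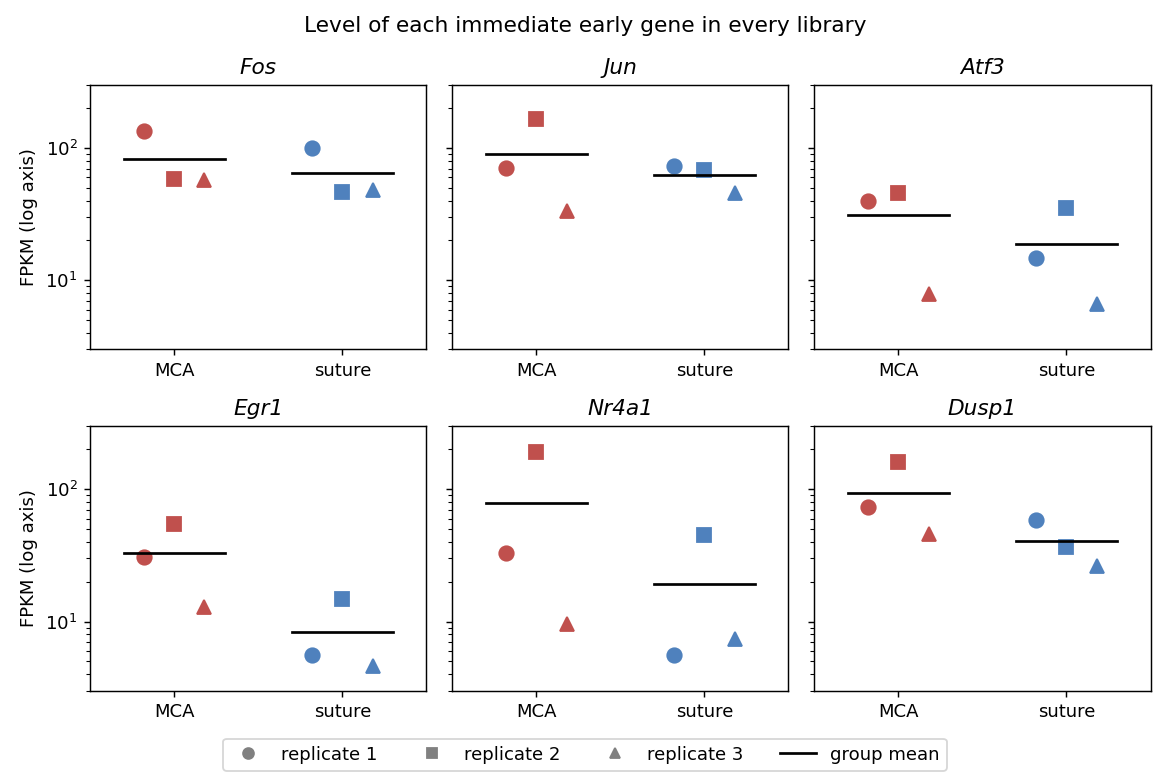
Level of each gene in FPKM on a log axis, by group, with one point per library (circle, square and triangle for replicates 1, 2 and 3) and a line at the arithmetic group mean. MCA replicate 2 is the highest library for every gene but Fos, and the groups overlap in all 6 panels.

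Fos and Jun encode the partners of the AP-1 transcription factor, in which a Fos and a Jun protein pair through their leucine zippers and bind DNA together. Fos stood at 134, 58.8 and 57.0 FPKM in MCA replicates 1, 2 and 3 and at 99.7, 46.4 and 48.1 FPKM in suture replicates 1, 2 and 3. One library of each group was high, the replicate 1 in both cases, and the other 4 libraries lay close together. The MCA libraries averaged 83.2 ± 43.8 FPKM and the suture libraries 64.7 ± 30.3 FPKM (SD, n = 3 in each). The log2 fold was 0.33 ± 0.45 (standard error), with a 95% interval of -0.74 to 1.41 (limma, adjusted p = 1.00). Leaving out MCA replicate 1 turned this fold to -0.066, and array weights, which favour that library, raised it to 1.00.

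Jun stood at 70.3, 165 and 33.4 FPKM in MCA replicates 1, 2 and 3 and at 72.8, 67.9 and 45.3 FPKM in suture replicates 1, 2 and 3. The MCA group held both the highest and the lowest library, and the suture libraries lay between them. The MCA libraries averaged 89.7 ± 68.0 FPKM and the suture libraries 62.0 ± 14.6 FPKM (SD, n = 3 in each), and the log2 fold was 0.26 with a 95% interval of -1.06 to 1.59 (limma, adjusted p = 1.00). Without MCA replicate 2 the MCA mean was 51.9 FPKM and the log2 fold turned to -0.32. Per length, the ratio of the 2 AP-1 transcripts was not steady: Fos was 1.90 times Jun in MCA replicate 1, while Jun was 2.81 times Fos in MCA replicate 2.

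Atf3 encodes a leucine zipper factor of the ATF and CREB family that is induced by cell stress and acts mainly as a repressor. It stood at 39.6, 45.7 and 7.87 FPKM in MCA replicates 1, 2 and 3 and at 14.7, 35.1 and 6.63 FPKM in suture replicates 1, 2 and 3. MCA replicates 1 and 2 and suture replicate 2 were above 30 FPKM, and the replicate 3 of each group was below 8 FPKM. The MCA libraries averaged 31.1 ± 20.3 FPKM and the suture libraries 18.8 ± 14.7 FPKM (SD, n = 3 in each). The log2 fold was 0.65 with a 95% interval of -1.20 to 2.51, which holds differences of more than 2-fold in both directions (limma, adjusted p = 1.00). Without MCA replicate 2 it was 0.22, and without suture replicate 3 it was 0.11.

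The signals that induce immediate early genes meet at short DNA elements near the start site. The promoters of Egr1, Nr4a1 and Dusp1 are shown because only these 3 of the 6 genes were matched in the promoter reference. They were also the genes with the largest folds. Without the promoters of the other members, the matches below cannot be set against the folds. Promoter sequences were taken from RefSeq (build GRCr8), where 3 of the 6 symbols were matched, and Fos, Jun and Atf3 were not. Each line gives the 250 bases before the start, 5′ to 3′ on the plus strand, which is the coding strand of all 3. Capitals mark the cyclic AMP response element TGACGTCA, its core TGACG (where the core lies on the minus strand, the plus strand reads CGTCA) and the CArG box that serum response factor binds.
Egr1, chr18:26736828-26737077: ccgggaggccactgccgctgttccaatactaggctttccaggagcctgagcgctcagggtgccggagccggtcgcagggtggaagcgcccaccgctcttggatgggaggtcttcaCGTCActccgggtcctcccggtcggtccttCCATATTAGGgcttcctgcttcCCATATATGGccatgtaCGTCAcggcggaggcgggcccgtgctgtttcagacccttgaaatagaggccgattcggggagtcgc
Nr4a1, chr7:134259888-134260137: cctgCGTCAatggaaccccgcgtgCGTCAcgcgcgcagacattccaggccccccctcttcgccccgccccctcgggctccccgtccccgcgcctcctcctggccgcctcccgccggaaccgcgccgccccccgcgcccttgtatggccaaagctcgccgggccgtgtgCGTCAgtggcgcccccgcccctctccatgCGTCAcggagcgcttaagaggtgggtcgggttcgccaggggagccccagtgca
Dusp1, chr10:17184603-17184852: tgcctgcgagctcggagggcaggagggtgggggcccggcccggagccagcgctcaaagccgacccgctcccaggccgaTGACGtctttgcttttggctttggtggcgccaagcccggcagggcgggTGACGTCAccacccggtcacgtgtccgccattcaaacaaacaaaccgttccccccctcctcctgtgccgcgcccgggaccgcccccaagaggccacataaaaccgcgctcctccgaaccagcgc

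Both strands of the 300 bases from 250 before to 50 after the start were searched, and no match reached past the start. Egr1 had 2 CArG boxes, beginning 105 and 83 bases before the start, and 1.64% of the 33469 promoters in the RefSeq table had at least 1. Nr4a1 and Dusp1 had none in this window. The full element TGACGTCA was found in Dusp1, beginning 124 bases before the start, and in 1.83% of all promoters. The core TGACG, which is part of the full element, had 2 matches in Egr1, 4 in Nr4a1 and 3 in Dusp1, of which 2 are the full element read on either strand, and 21.2% of all promoters had at least 1. The letters TGANTCA of the AP-1 site, GCGTGGGCG of the Egr site and TATAAA of the TATA box had no match in any of the 3, and 7.33%, 0.544% and 14.2% of all promoters held them. These matches describe the letters of the reference and are not measurements of binding.

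Egr1 encodes a zinc finger transcription factor that is induced by growth factors and mechanical force and drives genes of wound repair. Its log2 fold was the largest of the set. It stood at 30.9, 55.0 and 13.0 FPKM in MCA replicates 1, 2 and 3 and at 5.54, 14.8 and 4.64 FPKM in suture replicates 1, 2 and 3. A single pair of libraries overlapped, since MCA replicate 3 lay just below suture replicate 2. The MCA libraries averaged 33.0 ± 21.1 FPKM and the suture libraries 8.32 ± 5.61 FPKM (SD, n = 3 in each), a ratio of means of 3.96. The log2 fold was 1.81 ± 0.59 (standard error), with a 95% interval of 0.41 to 3.21, and the limma p was 0.0185 unadjusted and 0.786 after adjustment over all genes. Egr1 ranked 317 by unadjusted p among the 13591 genes. Without MCA replicate 2 the ratio of means was 2.64 and the log2 fold 1.34 (limma, unadjusted p = 0.0399, adjusted p = 0.626). Leaving out suture replicate 1 or suture replicate 3 took the unadjusted limma p past 0.05, to 0.0575 and 0.0707. Other omissions raised the fold. It was 2.34 without MCA replicate 3 (limma, unadjusted p = 0.00410, adjusted p = 0.677). Without suture replicate 2 it was 2.27 (limma, unadjusted p = 0.00811, adjusted p = 0.797).

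Nr4a1 encodes the orphan nuclear receptor Nur77, which is active without a known ligand and is regulated mainly through its amount. It stood at 33.0, 192 and 9.62 FPKM in MCA replicates 1, 2 and 3 and at 5.56, 45.0 and 7.42 FPKM in suture replicates 1, 2 and 3. The replicate 2 of each group was far above the other libraries of that group, and suture replicate 2 was above MCA replicates 1 and 3. The MCA libraries averaged 78.1 ± 99.0 FPKM and the suture libraries 19.3 ± 22.3 FPKM (SD, n = 3 in each). In both groups the SD exceeded the mean. The ratio of means, 4.04, was the largest of the set, but without MCA replicate 2 it was 1.10. The log2 fold was 1.59 ± 1.15 (standard error), with a 95% interval of -1.14 to 4.32 (limma, adjusted p = 1.00), and without MCA replicate 2 it was 0.48.

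Dusp1 encodes a phosphatase that removes the activating phosphates from MAP kinases and so limits the signal that induces it. It stood at 74.0, 159 and 45.7 FPKM in MCA replicates 1, 2 and 3 and at 58.2, 36.4 and 26.3 FPKM in suture replicates 1, 2 and 3. MCA replicates 1 and 2 were above every suture library, and MCA replicate 3 lay between suture replicates 1 and 2. The MCA libraries averaged 93.0 ± 59.2 FPKM and the suture libraries 40.3 ± 16.3 FPKM (SD, n = 3 in each), a ratio of means of 2.31. The log2 fold was 1.07 ± 0.51 (standard error), with a 95% interval of -0.13 to 2.27 (limma, unadjusted p = 0.0723, adjusted p = 1.00). Without MCA replicate 2 the ratio of means was 1.48 and the log2 fold 0.59.

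**Figure D2:**
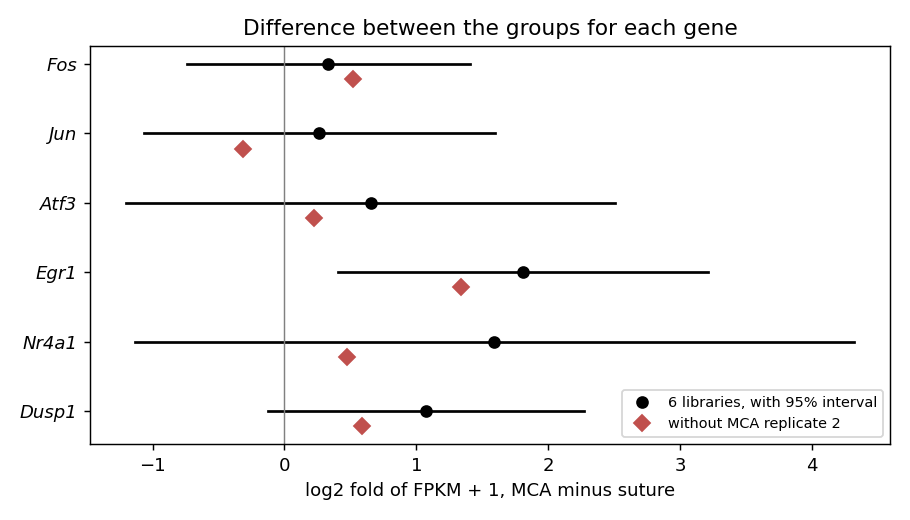
Log2 fold of FPKM + 1 (MCA minus suture) of each gene: black points with the 95% limma interval from 6 libraries, and red diamonds without MCA replicate 2. The interval of Egr1 alone lies above 0 (0.41 to 3.21), and the diamond of Jun lies below 0 (-0.32).

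The spread between libraries of the same operation was wide for these genes. The pooled within-group SD of log2(FPKM + 1) was 0.65 for Fos, 0.75 for Dusp1, 0.84 for Jun, 0.91 for Egr1, 1.23 for Atf3 and 1.84 for Nr4a1. Its median was 0.88 for the 6 genes, 0.37 for all 13591 genes tested and 0.38 for the 3209 that averaged 20 to 100 FPKM, the range in which all 6 lay. Nr4a1 ranked 61 of 13591 by this SD and Atf3 ranked 437. Fos, with the lowest SD of the set, exceeded 80.2% of all genes, 64.8% without MCA replicate 1 and 90.8% without MCA replicate 2. These shares depend on the pseudocount. With 0.1 in place of 1, Fos exceeded 71.9% of all genes, Dusp1 78.0% and Jun 82.4%, beside 85.5% for Dusp1 and 88.9% for Jun with 1. Without MCA replicate 2 the members' median SD was 0.76.

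Nr4a1 differed 19.9-fold between the highest and the lowest MCA library and 8.10-fold between the highest and the lowest suture library. Atf3 differed 5.80-fold and 5.30-fold in the same way. These 2 members exceeded 5-fold in each group, as did 12.1% of all genes with MCA and 4.64% with suture. Among the genes that averaged 20 to 100 FPKM the shares were 9.10% and 1.59%. For the other 4 the highest library was 2.35 to 4.94 times the lowest with MCA and 1.60 to 3.19 times with suture. The SD of the log2 level was wider with MCA than with suture in 6 of 6 members and in 58.8% of all genes. Between MCA replicates 1 and 3 alone the ratio was 5.03 for Atf3, 3.43 for Nr4a1, 2.38 for Egr1, 2.35 for Fos, 2.10 for Jun and 1.62 for Dusp1. It exceeded the range of the suture group in Fos and Jun only. That range is taken over 3 libraries, which tends to make it wider than a ratio between 2, so the comparison is uneven. A difference in spread between the groups was not tested, since 3 libraries a group allow no useful test of it.

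**Figure D3:**
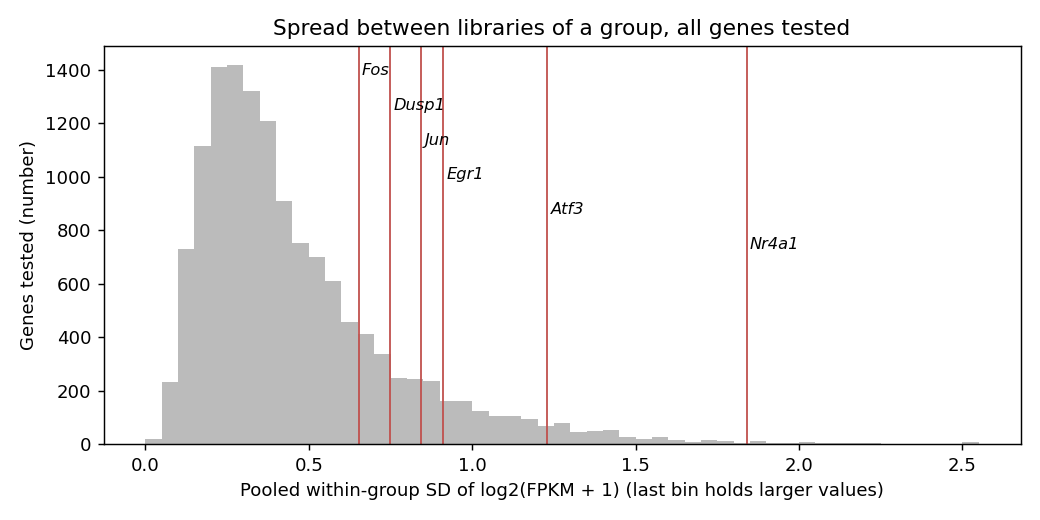
Number of genes (bars, vertical axis) by pooled within-group SD of log2(FPKM + 1) (horizontal axis) for the 13591 genes tested, with a red line at each immediate early gene. All 6 lines lie to the right of the median of 0.37, from 0.65 for Fos to 1.84 for Nr4a1.

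Single libraries were high or low across several of the genes at the same time. MCA replicate 2 was the highest of all 6 libraries for 5 of the 6 genes, Fos being the exception, and for 18.3% of all genes tested. MCA replicate 3 was the lowest of its group for all 6 genes, and for 33.8% of all genes. Suture replicate 3 lay below its group mean in all 6 genes, although it lay above that mean in 65.7% of all genes. In suture replicate 2 the departures from the group mean were 1.75 log2 units for Nr4a1, 1.15 for Atf3 and 0.92 for Egr1, but -0.38 for Fos and -0.07 for Dusp1. Summed over the 6 genes, the level was 382, 676 and 167 FPKM in MCA replicates 1, 2 and 3 and 256, 246 and 138 FPKM in suture replicates 1, 2 and 3. The highest and the lowest of these sums in each group were thus further apart with MCA, and the sum of MCA replicate 3 was below that of 2 suture libraries.

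**Figure D4:**
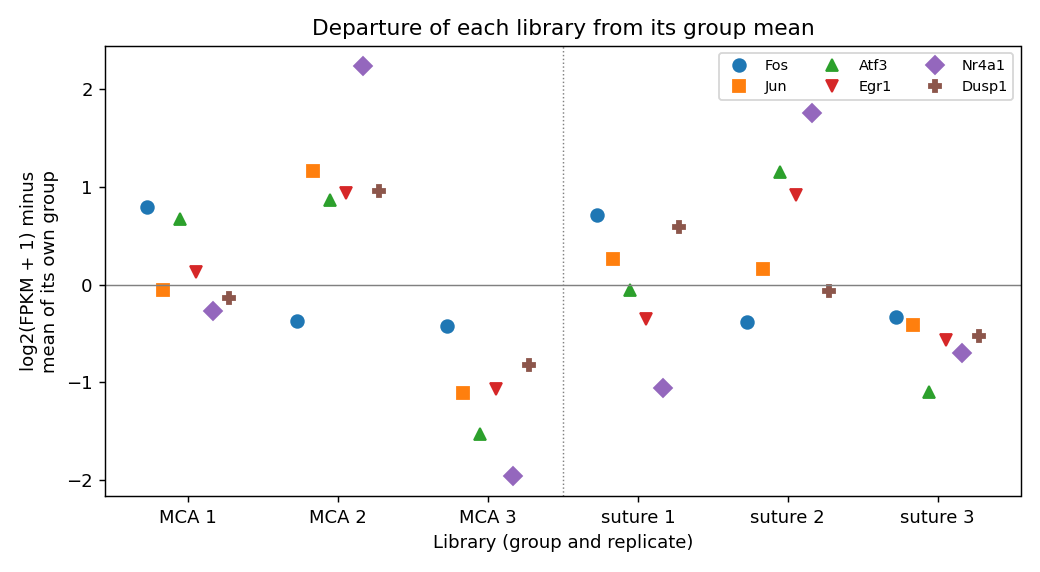
Departure of each library (horizontal axis) from the mean of its own group, in log2(FPKM + 1), with one symbol per gene. All 6 symbols lie below 0 in MCA replicate 3 and suture replicate 3, and 5 of 6 lie above 0 in MCA replicate 2, where Nr4a1 reaches 2.23.

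The genes did not all move together. Over the 15 pairs of members, the SD across the 6 libraries of the log2 ratio of the pair ran from 0.51 for Jun and Dusp1 to 2.02 for Fos and Nr4a1, with a median of 0.90. The SD of a ratio also depends on the spread of each gene by itself. Across the 6 libraries the SD of the log2 level was 0.61 for Fos, 0.77 for Jun, 0.89 for Dusp1 and 1.86 for Nr4a1. Its median over the members was 1.02. Jun and Dusp1 kept the steadiest proportion, Jun being between 0.732 and 1.86 times Dusp1. Within the MCA group alone the SD for Egr1 was 0.21 with Jun and 0.25 with Dusp1, and in the suture group 0.70 and 0.97. These pairs were picked from the 15, each SD rests on 3 libraries, and no SD for pairs of other genes was computed. Fos departed most from Nr4a1: it was 17.9 times Nr4a1 in suture replicate 1, 1.03 times in suture replicate 2 and 0.307 times in MCA replicate 2. These ratios share a library, so any property of a library as a whole enters both terms.

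The share of all FPKM held by the 7 most abundant genes was 19.8% and 18.7% in MCA replicate 1 and suture replicate 1, the libraries highest in Fos, and 20.4% in suture replicate 3. It was 30.6%, 33.6% and 37.3% in MCA replicates 2 and 3 and suture replicate 2. Rescaling without the 10 most abundant genes left the log2 fold of Fos at 0.35 and that of Nr4a1 at 1.60, and the members' median within-group SD at 0.98. Beyond this rescaling, the part of that share in the results was not tested.

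Among the other genes tested, the patterns most like the mean log2(FPKM + 1) of the 6 members over the 6 libraries were those of ENSRNOG00000052770 and ENSRNOG00000003687, known here by identifier only. Likeness was the SD over the 6 libraries of the difference between a gene and that mean, which was 0.34 and 0.36 log2 units for these genes and had a median of 1.04 over all others. ENSRNOG00000003687 stood at 77.3, 276 and 49.7 FPKM in MCA replicates 1, 2 and 3 and at 52.4, 76.8 and 42.8 FPKM in suture replicates 1, 2 and 3. ENSRNOG00000052770 was a low gene, at 3.26, 7.63 and 1.32 FPKM with MCA and 1.33, 3.96 and 1.37 FPKM with suture. Both were highest in MCA replicate 2, which follows from the choice, since the members' mean was also highest there. Both had a limma adjusted p of 1.00.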

How the data were processed

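TRIzol RNA was made into NEBNext Ultra libraries, which, per the labels' protocols, were sequenced on a DNBSEQ-T7 instrument, and the authors deposited normalized FPKM values. The submitters' processing notes name limma without a role. Which aligner, counting program, genome build, annotation and strand setting were used is not given in the sources used here. Whether reads of overlapping or similar genes were told apart is therefore not known.

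Library totals and whole fragments were recovered from the steps of the values: all 21417 genes gave whole fragments within 1e-07. The test took the 13591 genes averaging 1 FPKM or more and left out 7826, and all 6 members passed this filter. limma 3.58.1 in R 4.3.3 was fitted to log2(FPKM + 1) without covariates, with a mean-variance trend, two-sided, and Benjamini-Hochberg adjustment over all genes tested, at a threshold of 0.05. A pseudocount of 1 understates the fold of low genes. Tables and plots were made with pandas 2.3.3, numpy 2.4.6 and matplotlib 3.10.9 under Python 3.11.15. Both steps were tested on simulated data. The other genes named by identifier were the 2 closest to the members' mean profile. The members, the lists and the tests were chosen with earlier results of these data known. Lists of further early genes and of cell types had been set by symbol and were not used, since no identifier matched a symbol. The alternatives were other pseudocounts, filters, scalings and weights, no trend, limma-voom, a replicate block and leaving out libraries.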

Additional observations from a re-analysis of the deposited data

How the results depend on the processing

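Among the 6 genes, none passed the adjusted threshold in any of 17 alternative settings, and the limma adjusted p of Egr1 ran from 0.203, with array weights, to 1.00 and was 0.245 with the replicate block. Atf3, Egr1, Nr4a1 and Dusp1 kept the higher mean with MCA in all 17. When 1 library was left out at a time, the log2 fold ran from -0.066 to 0.69 for Fos, the lowest without MCA replicate 1, and from -0.32 to 0.82 for Jun, the lowest without MCA replicate 2. Without both number 2 libraries, an alternative chosen after seeing the data, the fold of Jun was -0.24. That of Egr1 was 1.80 (limma, unadjusted p = 0.00772, adjusted p = 0.651). In this setting 5.82% of all genes had an unadjusted p under 0.05.

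Over all genes, array weights called 35 genes (adjusted) and 1360 (unadjusted p under 0.05), with MCA replicate 1 weighted 4.31 and MCA replicate 2 weighted 0.29. Under these weights 5 of the 6 genes had a log2 fold of at least 1, but the share of all genes at that fold was not computed. All genes moved toward MCA as well: 58.9% had a log2 fold above 0, beside 46.6% without weights. The unadjusted threshold was met by 3 of the 6 genes and by 10% of all genes. These were Fos with a log2 fold of 1.00 (limma, unadjusted p = 0.0357, adjusted p = 0.460), Egr1 with 1.93 (limma, unadjusted p = 0.00269) and Dusp1 with 1.06 (limma, unadjusted p = 0.0154, adjusted p = 0.369). A filter at a mean of 5 FPKM gave 334 at the unadjusted threshold, with fewer genes tested, and leaving out 1 library gave 511 to 1065, the most without MCA replicate 2. With the replicate block the count was 1141, or 8.4% of all genes, and the members' median residual SD was 0.54. This is the SD left after the replicate numbers are fitted too, and is not a spread within a group. The unadjusted threshold was met by 3 of the 6 genes, with a limma p of 0.000711 for Egr1, 0.0148 for Nr4a1 and 0.0357 for Dusp1. Their adjusted limma p was 0.245, 0.456 and 0.561. By this residual SD Fos lay above 5.05% of all genes, where its within-group SD lay above 80.2%. Atf3 lay above 75.0%, Egr1 above 63.9%, Jun above 86.9%, Dusp1 above 87.6% and Nr4a1 above 92.1%. The labels do not say that the numbers pair animals. Across genes, the departures from the group mean of libraries that share a number had correlations of 0.42, 0.53 and -0.0016. Numbers 1 and 2 correlated best with their own number, and number 3 did not. The departures of a group sum to 0 for each gene, so these correlations depend on each other and cannot decide a pairing. No pairing was assumed, since the labels give none. The counting error of the members, at most 6.76%, was small beside their within-group SDs of 0.65 to 1.84 log2 units.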
